A study of Mus musculus with 2 samples.

Results

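The 9 genes described here encode parts of the Nodal signalling pathway: the ligand Nodal, its co-receptor Tdgf1 (Cripto), the inhibitors Lefty1 and Lefty2, the receptors Acvr1b, Acvr2a and Acvr2b, the signal transducer Smad2 and its nuclear partner Foxh1. They were taken by name, as all non-control probes of the array that the deposited annotation assigns to these genes, which gave 12 of 41174 probes and 9 of 20161 named genes. The tissue was the male gonad at embryonic day 14.5 from mice of the MCH strain. All gonads carried a transgene of a Nanos2 enhancer, the coding region of Nanos2 with a 3xFLAG tag and the Nanos2 3′ untranslated region, so both groups come from the same genotype. One group was RNA recovered with Anti-FLAG M2-Agarose (FLAG IP) and the other was RNA of the starting material (input, for which the antibody label reads none). Each group held 2 one-colour Agilent arrays, called biological duplicates by the series text, so n = 2 arrays per group throughout. Nanos2 is an RNA-binding protein of male germ cells, and the enhancer on the transgene is that of this gene. A precipitate from gonads without the tag was not analysed here, so RNA bound by the beads themselves was not measured.

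Nodal is a secreted ligand of the TGF-beta family. It binds a complex of type II receptors (Acvr2a, Acvr2b) and the type I receptor Acvr1b together with the co-receptor Tdgf1, and the activated type I receptor phosphorylates Smad2 and Smad3. These enter the nucleus with Smad4, join DNA-binding partners such as Foxh1 and switch on genes that include Nodal itself and the Lefty genes, whose secreted products block Nodal. In the fetal testis the pathway is known to be active in male germ cells for a short time after sex determination, while activin, which shares the receptors, also acts on the somatic cells.

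In the FLAG IP, 5 of the 9 genes were higher and 1 was lower than in the input, and 3 did not pass the test. Nodal rose by 3.74 ± 0.21 on the log2 scale (moderated SE, n = 2 arrays per group), the receptors Acvr2a, Acvr2b and Acvr1b rose by 2.27 ± 0.24, 1.31 ± 0.18 and 1.14 ± 0.16, and Smad2 by 1.70 ± 0.16. Lefty2 fell by 2.36 ± 0.21. Tdgf1, Lefty1 and Foxh1 stood at 0.59 ± 0.48, 0.25 ± 0.42 and 0.41 ± 0.58. These are differences in share, since every array was first divided by its own 75th percentile of signal: without that scaling the values of Acvr2a, Acvr2b, Acvr1b and Smad2 turned negative, at -0.21, -1.18, -1.34 and -0.79, while the median of all genes was -2.41. Nodal then stood at 1.25 and Lefty2 at -4.85. Leaving out the scaling shifts all genes alike, so distances from that median were the same with and without it (3.67 for Nodal). Relative to the median of all genes in each setting, the 5 genes that rose were above it and Lefty2 below it in all 15 alternative settings tried. These are not 15 separate checks. The filters, eBayes settings and replicate block left the members' fold changes as they were, and other settings repeat the same distance or the same value.

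The test was limma across all 15266 genes with a signal, with Benjamini-Hochberg adjustment and a threshold of 0.05. By it 28.0% of all genes were higher and 25.4% lower in the FLAG IP, against 55.6% and 11.1% of the 9 genes. The median log2 fold change was 1.14 over the 9 genes and 0.07 over all genes. In either direction 53.4% of all genes were called, so a call alone says little about a gene, and the size and the value on every array are given for each. Fewer of the 9 genes were called when an input array was left out, but the sizes of the called genes changed little. Without input replicate 1 Nodal stood at 3.67, Smad2 at 1.68 and Lefty2 at -2.32, and without input replicate 2 at 3.81, 1.71 and -2.40. The input replicates lie close together, so leaving 1 of them out could move these sizes little. Without FLAG IP replicate 1 the same genes stood at 3.55, 1.63 and -2.55, and without FLAG IP replicate 2 at 3.93, 1.76 and -2.17. A fit with 1 array left out takes its spread from the 2 arrays of the other group alone. Its calls, here and below, therefore cannot be set beside those of the full fit.

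Some facts of the arrays bear on every value. FLAG IP replicate 1 was the dimmest array, with a 75th percentile of 55.7 intensity units, against 608 for FLAG IP replicate 2 and 1026 and 1038 for the input. Spots well above background, by the scanner software's mark, made up 42.7% and 65.4% of the FLAG IP arrays and 66.0% and 70.2% of the input arrays. Over all genes the replicate SD had a median (log2) of 0.304 in the FLAG IP and 0.060 in the input. Of fixed marker lists, 0 of 33 somatic cell markers were higher in the FLAG IP and 28 lower in limma (0 and 29 at an unadjusted p under 0.05), with a summed level of 529 to 562 times the 75th percentile in the input and 72.4 to 88.9 in the FLAG IP. Of 10 germ cell markers 4 were higher and 2 lower, with a summed level of 92.7 to 96.4 in the input and 150 to 185 in the FLAG IP. Nanos2 is among those 4, and its coding region and 3′ untranslated region are also carried by the transgene. All 10 germ cell markers and all 8 Sertoli cell markers were well above background on both input arrays. Within a bulk sample such as the input, fewer cells of a type and less RNA per cell cannot be told apart. The part of the cell type mixture in the values that follow was not tested.

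**Figure D1:**
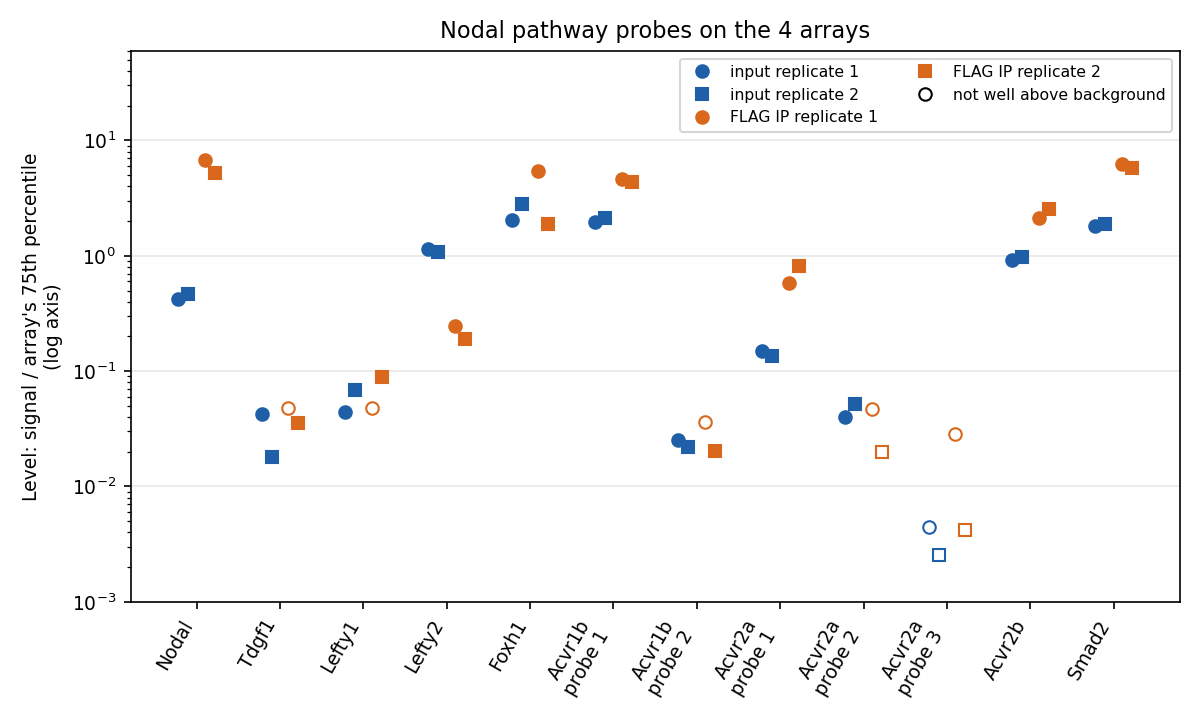
Level of each of the 12 probes on the 4 arrays, as the processed signal divided by the array's 75th percentile (log axis), with filled symbols for spots well above background and open ones for spots that were not. Nodal, Smad2, Acvr2b and the brightest probes of Acvr1b and Acvr2a lie higher on both FLAG IP arrays than on both input arrays, Lefty2 lies lower on both, and Foxh1, Tdgf1, Lefty1 and the dim tested probes of Acvr1b and Acvr2a overlap. Without the division by the 75th percentile, Acvr1b, Acvr2a, Acvr2b and Smad2 have mean log2 differences below 0.

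The ligand gene Nodal showed the largest difference of the 9 genes. Its single probe had a signal of 432 and 481 in the input, and of 374 on the dim and 3156 on the bright FLAG IP array (intensity units). Divided by each array's 75th percentile, these are levels of 0.421 and 0.463 in the input and 6.72 and 5.19 in the FLAG IP. Both FLAG IP arrays were far above both input arrays, and all 4 spots were well above background. The difference was 13.4-fold (95% interval of the log2 value 3.17 to 4.31, adjusted p = 0.00381 in limma), the 26th largest of 15266 genes. On the log2 scale the dim FLAG IP array lay 3.93 and the bright one 3.55 above the input mean. In the authors' deposited table the ratio of FLAG IP to input for this probe is 12.3. After normexp background correction the value was 3.17 (adjusted p = 0.0318), where the median of all genes was 0.38. That correction added an offset of 50 units to every spot, close to the 75th percentile of the dim FLAG IP array (55.7). After scaling, this offset moves dim probes up in the FLAG IP relative to the input.

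Tdgf1, the membrane-anchored co-receptor that Nodal needs to bind Acvr1b, gave no clear difference. Its levels were 0.0424 and 0.0179 in the input and 0.0479 and 0.0357 in the FLAG IP, from signals of 43.4 and 18.6 units in the input and 2.67 and 21.7 in the FLAG IP. The groups overlapped, the input arrays themselves differed 2.36-fold, and the spot on FLAG IP replicate 1 was not well above background. The log2 fold change was 0.59 with a 95% interval from -0.75 to 1.92 (adjusted p = 0.362 in limma), which spans both directions. The value was 1.48 after normexp background correction (adjusted p = 0.215), -0.055 with quantile normalization and -0.034 without input replicate 2.

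Of the receptors, Acvr1b is the type I receptor kinase that Nodal shares with activin (ALK4). Its brighter probe stood at 1.97 and 2.13 in the input and 4.67 and 4.39 in the FLAG IP. Both groups were tight, with replicates 1.08-fold apart in the input and 1.07-fold in the FLAG IP, and they did not overlap. The rise was 2.21-fold (adjusted p = 0.00812 in limma). The second probe of Acvr1b was dim, at 0.0254 and 0.0219 in the input and 0.0362 and 0.0204 in the FLAG IP, with the first FLAG IP spot not well above background. Tested on its own it stood at 0.20 ± 0.35 (adjusted p = 0.661 in limma over 26529 probes). The Acvr1b call was lost with the mean of the gene's probes (0.67, adjusted p = 0.0659), with normexp background correction (1.01, adjusted p = 0.0708), with slide as a block (1.09, adjusted p = 0.156) and without input replicate 1 (adjusted p = 0.191) or 2 (adjusted p = 0.133).

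Acvr2a, a type II receptor of activin and Nodal, had 3 probes that did not read alike. The probe A_52_P575854 stood at 0.150 and 0.135 in the input and at 0.579 and 0.817 in the FLAG IP, all well above background, which is a 4.84-fold rise (adjusted p = 0.00464 in limma). The probe A_52_P664656, which the array annotation ties to the same transcript record, stood at 0.0402 and 0.0518 in the input and at 0.0466 and 0.0198 in the FLAG IP. Both of its FLAG IP spots were not well above background, so only the input was measured, and its value of -0.59 ± 0.49 (adjusted p = 0.387 in limma over all probes) has no fold. With quantile normalization it was called lower in limma over all probes (-1.23, adjusted p = 0.0320). That call rests on the same FLAG IP spots, so no direction is read from it. In the same setting A_52_P575854 was called higher (2.23, adjusted p = 0.0107 in limma). The third probe, A_52_P11800, tied to a cDNA clone, was not well above background on any of the 4 arrays and was not tested. The rise of Acvr2a thus rests on 1 of its 3 probes, and with the mean of its tested probes it was 0.84 (adjusted p = 0.0299).

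Acvr2b, the second type II receptor, had 1 probe, at 0.913 and 0.975 in the input and 2.13 and 2.57 in the FLAG IP. The groups did not overlap, and the rise was 2.48-fold (adjusted p = 0.00791 in limma). It was not called with slide as a block (1.26, adjusted p = 0.111), nor without input replicate 1 (adjusted p = 0.148) or 2 (adjusted p = 0.105). Among the receptors, the 95% interval of Acvr2b (0.80 to 1.82) overlapped those of Acvr1b (0.70 to 1.59) and Acvr2a (1.61 to 2.93), while those of Acvr1b and Acvr2a did not overlap.

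Smad2, the transducer that the activated receptor phosphorylates, was among the most even of the 9 genes between replicates. It stood at 1.82 and 1.87 in the input and at 6.24 and 5.73 in the FLAG IP, where the raw signals were 348 and 3486 units. Both FLAG IP arrays were above both input arrays by several times the gap between replicates, which was 1.02-fold in the input and 1.09-fold in the FLAG IP. The rise was 3.24-fold (adjusted p = 0.00411 in limma). It was 1.68 with slide as a block (adjusted p = 0.0499), and it was not called without input replicate 1 (adjusted p = 0.0860) or 2 (adjusted p = 0.0598).

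Foxh1, the forkhead factor that recruits Smad2 to DNA, was bright but uneven. Its levels were 2.06 and 2.82 in the input, and 5.49 (replicate 1) and 1.88 (replicate 2) in the FLAG IP. The FLAG IP arrays lay on opposite sides of the input, 2.92-fold apart, so the groups overlapped. The mean difference was 0.41 with a 95% interval from -1.20 to 2.03 (adjusted p = 0.582 in limma). It was 1.19 without FLAG IP replicate 2 (adjusted p = 0.0109) and -0.36 without FLAG IP replicate 1 (adjusted p = 0.256), so that a single array set its direction.

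The inhibitor genes Lefty1 and Lefty2 encode similar secreted proteins. Lefty2 had signals of 1174 and 1120 units in the input, and of 13.7 on the dim and 115 on the bright FLAG IP array. Its levels were 1.14 and 1.08 in the input and 0.247 and 0.190 in the FLAG IP. The input arrays were both more than the 75th percentile, the FLAG IP arrays both far below it, and all 4 spots were well above background. Lefty2 was 5.14-fold lower in the FLAG IP (95% interval of the log2 value -2.93 to -1.80, adjusted p = 0.00395 in limma), the 658th lowest of 15266 genes. In the authors' deposited table the ratio for this probe is 0.179. The call was lost after normexp background correction (-1.64, adjusted p = 0.0777) and without input replicate 1 (-2.32, adjusted p = 0.0597).

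Lefty1 was dim on all arrays, at levels of 0.0438 and 0.0686 in the input and 0.0478 and 0.0888 in the FLAG IP. The groups overlapped, and the spot on FLAG IP replicate 1 was not well above background. Its value of 0.25 had a 95% interval from -0.90 to 1.39 (adjusted p = 0.642 in limma) and was 1.38 after normexp background correction (adjusted p = 0.162), -0.35 with quantile normalization, -0.075 with slide as a block and -0.20 without FLAG IP replicate 2. The signals of 44.9 and 71.2 units in the input and 2.66 and 54.0 in the FLAG IP leave this gene near the limit of the arrays. Cross-hybridisation between the Lefty transcripts was not tested.

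**Figure D2:**
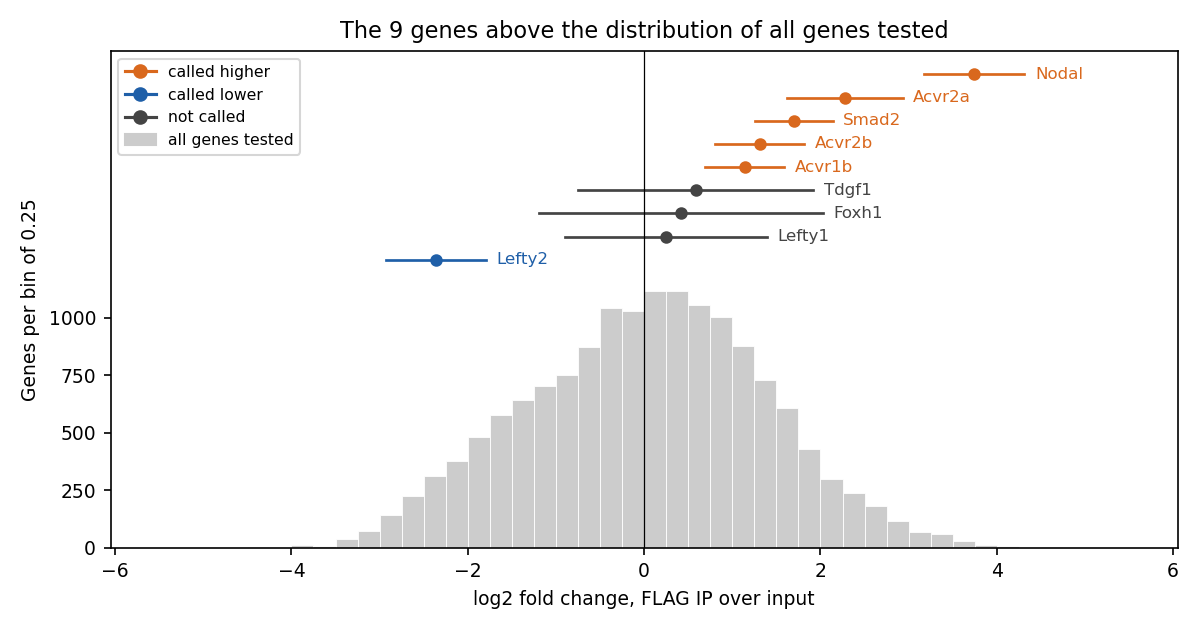
Log2 fold change of FLAG IP over input with its 95% interval from limma for each of the 9 genes (points and lines), drawn above the histogram of all 15266 genes tested (grey bars, genes per bin). Nodal lies in the right tail at 3.74, Lefty2 in the left part at -2.36, and the intervals of Tdgf1, Foxh1 and Lefty1 include 0; without array scaling Acvr2a, Acvr2b, Acvr1b and Smad2 would stand below 0, as would the median of all genes.

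In order of size, the log2 fold changes ran from Nodal through Acvr2a, Smad2, Acvr2b and Acvr1b to Tdgf1, Foxh1, Lefty1 and Lefty2. The interval of Nodal lay above that of every other member, and the interval of Lefty2 below that of every other member. Between Acvr2a and Lefty1 the intervals of all neighbours overlapped, so the order of neighbours there cannot be read. Farther apart, the interval of Acvr2a (1.61 to 2.93) lay above those of Acvr1b (0.70 to 1.59) and Lefty1 (-0.90 to 1.39). The groups did not overlap in 6 of the 9 genes (5 with the FLAG IP higher, 1 lower), against 80.2% of all genes tested (42.0% higher, 38.2% lower). Tested as single probes among 26529, 5 of the 11 member probes were higher and 1 lower, where 23.2% of all probes were higher and 22.4% lower. Of the 12 probes, 7 were well above background on all 4 arrays, 3 on both input arrays and 1 FLAG IP array, 1 on the input arrays alone and 1 on none. The 5 tested probes that were not called included all 4 that missed this mark on a FLAG IP array, and Foxh1.

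Differences between 2 genes on the same array do not depend on the factor by which each array is scaled. Pairs of members with a like or opposed role were compared in this way, 4 in all. The log2 signal of Nodal minus that of Lefty2 was -1.44 and -1.22 on the input arrays and 4.77 and 4.77 on the FLAG IP arrays. The FLAG IP arrays stood at the same value although their brightness differed 10.9-fold, and the balance of the 2 probes moved by 6.10 ± 0.11 (SE from the pooled SD), which is 68.7-fold. After normexp background correction this shift was 4.82. For Acvr2a minus Acvr2b the values were -2.60 and -2.86 in the input and -1.88 and -1.65 in the FLAG IP, a shift of 0.96 ± 0.17. In both of these pairs the FLAG IP arrays lay above the input arrays, and each two-sided exact permutation test gave p = 0.333 (adjusted p = 0.333), the smallest that 2 against 2 arrays allow. In the other 2 pairs the dim gene was not well above background on FLAG IP replicate 1, so no shift is read there. On the remaining arrays Lefty1 minus Lefty2 was -4.71 and -3.98 in the input and -1.10 on FLAG IP replicate 2, and Nodal minus Tdgf1 was 3.31 and 4.69 in the input and 7.18 on FLAG IP replicate 2. The level of one probe against another has no meaning by itself here, because probes differ in brightness, and only the shift between groups is read.

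**Figure D3:**
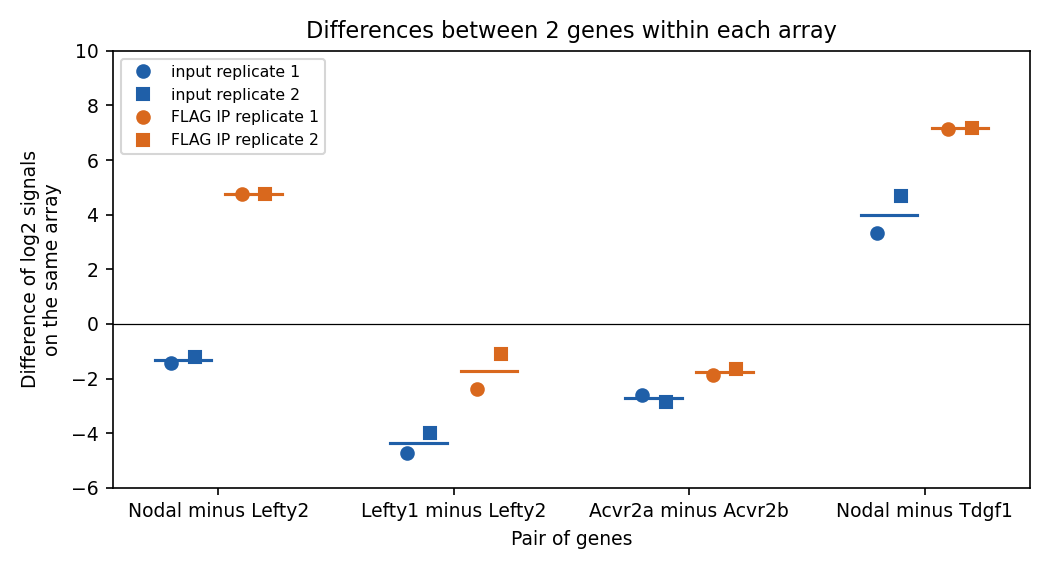
Difference of the log2 signals of 2 genes on the same array, for 4 pairs of genes, with input arrays in blue, FLAG IP arrays in orange and group means as bars. The Nodal minus Lefty2 difference is -1.44 and -1.22 in the input and 4.77 on both FLAG IP arrays, and the Acvr2a minus Acvr2b difference is also higher on both FLAG IP arrays. In the pairs with Lefty1 and Tdgf1 the point of FLAG IP replicate 1 rests on a spot not well above background.

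Other genes of the Nodal and activin pathway were taken from 7 lists with 48 genes, of which 42 were tested. Of these, 12 were higher and 12 lower in limma, which is 28.6% each way and close to the share of all genes, and 18 were not called. Their median was 0.18. These values too are shares: with no scaling, all of the 12 higher genes but Foxa2, Lhx1 and Nanog turned negative. Limma then called 0 in either direction (0 higher and 10 lower at an unadjusted p under 0.05). Without scaling, the 10.9-fold brightness gap between the FLAG IP arrays enters the spread of every gene. That count of 0 therefore says nothing about these genes. Among other ligands and the second co-receptor gene, Gdf3, a ligand that also signals through Tdgf1, rose by 1.31 ± 0.36 from a dim probe well above background on 1 FLAG IP array, a call that was lost with quantile normalization (1.03, adjusted p = 0.0509). Inhba, which encodes the activin A subunit, fell by 1.41 ± 0.27. Gdf1, a partner of Nodal, stood at -0.63 ± 0.22 and Cfc1, the co-receptor gene related to Tdgf1, at 0.69 ± 0.39. Inhbb and Smad7 were not analysed here.

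Of 8 secreted antagonists and decoys, 4 fell, 1 rose and 3 were not called. That is 50% lower and 12.5% higher, against 25.4% and 28.0% of all genes. Inha, the alpha subunit of inhibin, which opposes activin and is a product of Sertoli cells, fell by 3.21 ± 0.20, from levels of 13.4 and 13.5 in the input to 1.28 and 1.64 in the FLAG IP. Tmeff1, a membrane inhibitor of Nodal that binds Tdgf1, fell by 1.23 ± 0.18. Cer1, a secreted Nodal antagonist, rose by 1.42 ± 0.17 from levels of 0.0282 and 0.0328 to 0.0826 and 0.0801, with 1 FLAG IP spot not well above background. Dand5, of the same family, fell by 0.62 and Tgfbr3, a co-receptor of inhibin, fell by 0.88, both with 1 FLAG IP spot not well above background. Both stood above 0 after normexp background correction, at 0.33 and 0.93, where its offset moves dim probes up in the FLAG IP. Fst and Fstl3, which trap activin, stood at 0.06 ± 0.55 and 0.95 ± 0.46, and Bambi, a decoy receptor, at -0.53 ± 0.23.

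Of 4 other receptors, Tgfbr1 rose by 0.73 ± 0.19 (0.11 and not called with the mean of its probes) and Tgfbr2, its type II partner for TGF-beta, fell by 1.62 ± 0.19 (-0.90, adjusted p = 0.104, with the mean of its probes). Acvr1 stood at -0.67 ± 0.27. Acvr1c (ALK7), the other type I receptor used by Nodal, was not well above background on either FLAG IP array. The genes on the list of convertases, enzymes that cut protein precursors, showed values below 0. Pcsk5 fell by 2.41 ± 0.17. Pcsk6 fell by 2.33 ± 0.32, from 16.7 and 15.1 in the input to 2.40 and 4.17 in the FLAG IP, while Furin stood at -0.62 ± 0.20 (adjusted p = 0.0610 in limma). Of the 4 tested probes of Pcsk5, 3 were called lower, and the mean of the 4 gave -1.497 (adjusted p = 0.0343 in limma).

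Smad3, which the same receptors phosphorylate as Smad2, fell by 1.77 ± 0.38, from 1.97 and 1.80 in the input to 0.393 and 0.777 in the FLAG IP. Of its 3 tested probes 2 were called lower. Smad6, an inhibitory SMAD, fell by 0.75 ± 0.21, whereas Smad4, the common partner, stood at 0.53 ± 0.26 and the receptor adaptor gene Zfyve9 at 0.39 ± 0.24. A second probe of Smad4, tested on its own, was called higher at 0.90, and the mean of both was called at 0.72. Of 11 nuclear partners and brakes of the pathway 4 rose and 1 fell (36.4% and 9.09%, against 28.0% and 25.4% of all genes). Rnf111 (Arkadia), a ubiquitin ligase that removes the SMAD repressors Ski and Skil, rose by 1.93 ± 0.18, although its second, dimmer probe stood at 0.10 and the mean of both gave 1.02. Trim33, a ligase and SMAD partner, rose by 1.58 ± 0.25, Skil by 1.51 ± 0.28 and Smurf1, a ligase that acts on SMADs and receptors, by 1.09 ± 0.17. Drap1, a repressor known to restrain Foxh1, fell by 0.63 ± 0.16. Pmepa1, a membrane brake on SMAD activation, stood at -0.01 ± 0.25, although its second probe was called lower at -1.73 and the mean of both at -0.87.

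Of 12 known Nodal target genes in other embryonic tissues 8 were tested, and 5 of them rose, 1 fell and 2 were not called. That is 62.5% higher and 12.5% lower, against 28.0% and 25.4% of all genes. The transcription factor genes Foxa2 and Lhx1 rose by 3.15 ± 0.41 and 3.14 ± 0.46 from levels of 0.0711 and 0.0720, and of 0.0568 and 0.0635, in the input. Nanog rose by 2.59 ± 0.23, Wnt3, a secreted ligand gene, by 1.80 ± 0.17, and Gsc (goosecoid) by 1.31 ± 0.23. Gata6 fell by 1.37 ± 0.18, and T (brachyury) and Fgf8 stood at 0.17 ± 0.18 and 0.00 ± 0.35. Eomes, Mixl1 and Otx2 were not well above background on both arrays of either group and were not tested. Tested probe by probe, 0 of 19 of these pathway genes with several tested probes had probes called in opposite directions. Their probes did not always agree, however. Gata6, Pcsk5, Pmepa1, Rnf111, Skil, Smad3, Smad4, Smurf2, Tgfbr1 and Tgfbr2 each had called and uncalled probes. The share of opposite calls over all genes is not given, so the 0 is no result about these genes. Without FLAG IP replicate 1 limma called 21 of the pathway genes higher and 18 lower, and without input replicate 1 it called 0 higher and 0 lower (10 and 7 at an unadjusted p under 0.05).

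**Figure D4:**
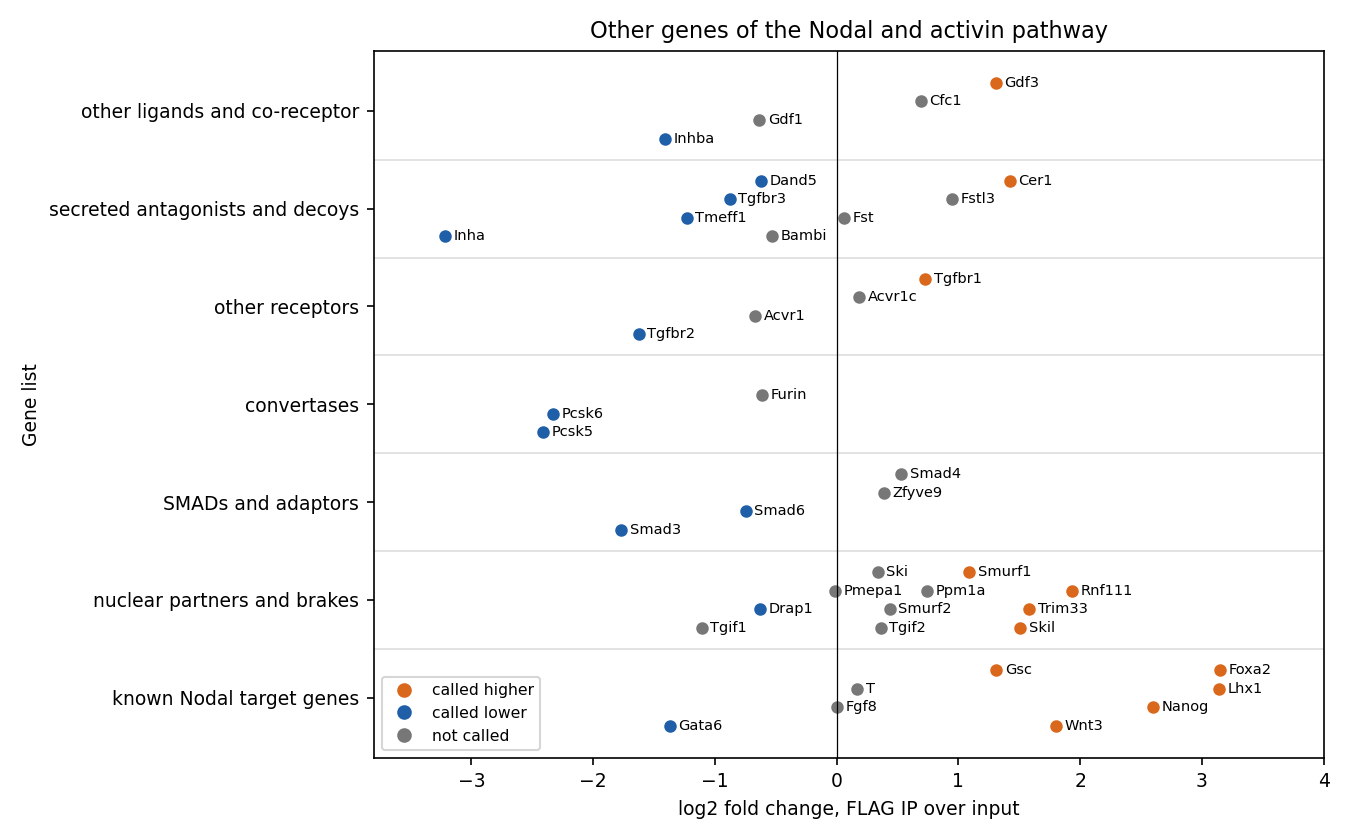
Log2 fold change of FLAG IP over input for the 42 tested genes of 7 lists of the Nodal and activin pathway, with genes called higher in orange, called lower in blue and not called in grey. Foxa2, Lhx1 and Nanog lie farthest to the right and Inha farthest to the left. With no array scaling, those in orange other than Foxa2, Lhx1 and Nanog stand below 0. In that setting 0 of these genes were called, as the brightness gap between the FLAG IP arrays enters the spread of every gene.

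The genes whose pattern over the 4 arrays was most like that of Nodal were found by the root mean square difference of the centred log2 values. The nearest were Nr6a1, a nuclear receptor gene of germ cells, at 0.043, Terb2, a meiotic telomere gene, at 0.076, Ap1s3 at 0.084, Nkx6-2 at 0.089 and Sox2ot, a noncoding RNA that overlaps Sox2, at 0.099. Their log2 fold changes ran from 3.59 to 3.77. Nr6a1 stood at 0.229 and 0.257 in the input and at 3.46 and 2.69 in the FLAG IP. The genes nearest to Lefty2 were Sfxn3 at 0.018, Mettl26 at 0.027, Phpt1 at 0.030, Pcdhb7 at 0.031 and Pdzd11 at 0.032, with log2 fold changes from -2.40 to -2.31. Over 4 arrays of 2 groups such likeness shows little more than a like fold change.

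**Figure D5:**
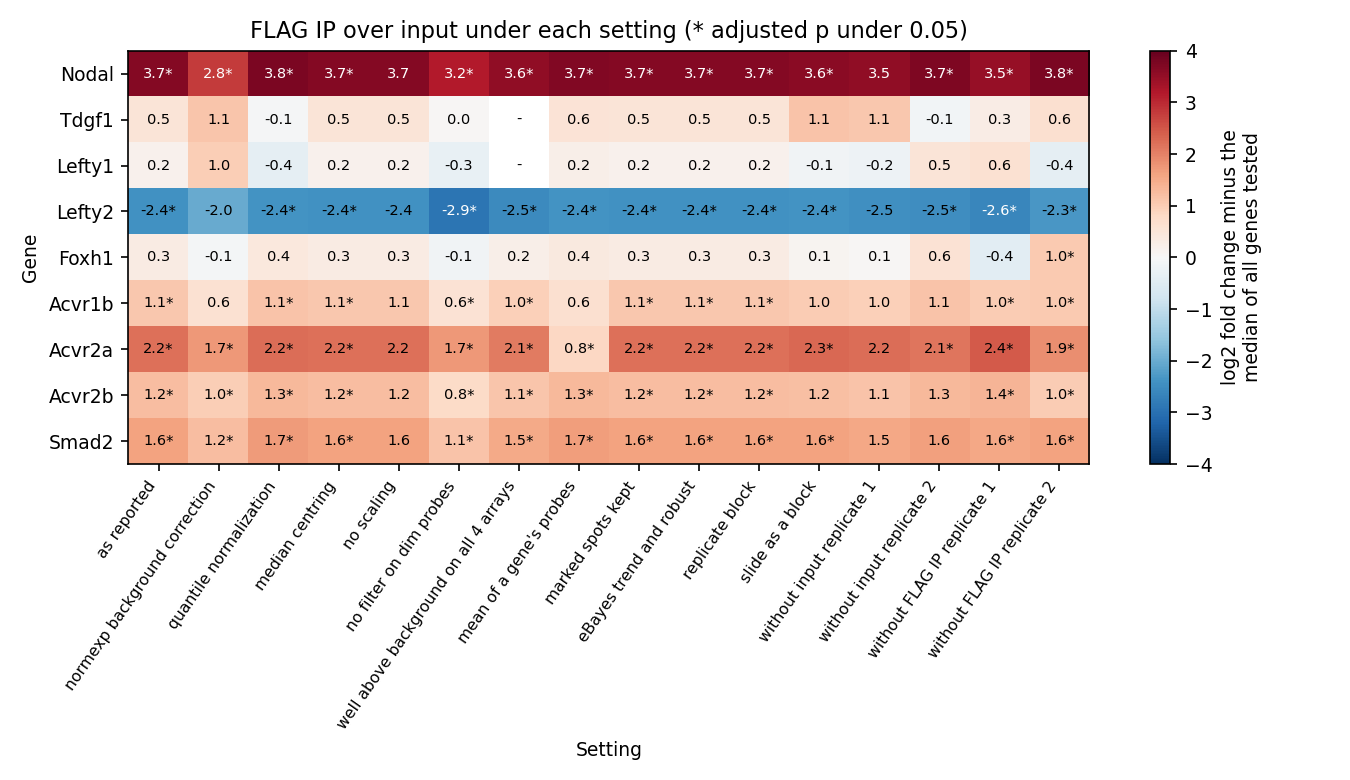
Log2 fold change of the 9 genes in each setting, minus the median of all genes tested in that setting (colour and number), with a star where the adjusted p was under 0.05 and a dash where the gene was not tested. Nodal stays between 2.79 and 3.77 and Lefty2 between -2.91 and -2.03, while Tdgf1, Lefty1 and Foxh1 lie on both sides of 0.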

How the data were processed

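Cy3-labelled RNA (0.20 µg of starting RNA) of FLAG IP and input was hybridised to one-colour arrays, per the labels' protocols. The submitters' processing notes name Agilent Feature Extraction 9.5. Per the file headers, its processed signals are intensity values on a linear scale, background-corrected before deposit. The authors' deposited table gives a FLAG IP to input ratio by probe, the mean signal of each group, which equals the mean of its 2 arrays (within 0.1% for all probes with 1 spot), and a p-value from the authors' t-test, which was not used. No per-sample columns were left unused.

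Each processed signal was divided by the 75th percentile of its array's non-control spots and taken to log2. Spots marked as outliers (52 to 104 an array) were set to missing, and 0 were saturated. Probes well above background on both replicates of the input, the FLAG IP or both were tested, and the brightest probe of a gene stood for it. Names came from the gene IDs of the deposited table, updated through the RefSeq gene table of GRCm38.p6 (31004 probes), through a symbol (155) or an older symbol (309), or from the file (1108), and 8598 probes had none. Groups were compared with limma 3.58.1 in R 4.3.3 (2 residual and 2.08 prior degrees of freedom), per gene and per probe. Levels in the text are linear signals divided by the 75th percentile. The fit was tested on simulated data of the FLAG IP against input comparison with 15266 genes: 2 of 50 genes with a 2-fold change were recovered, 19 of 50 at 4-fold, 35 of 50 at 8-fold and 31 of 50 at 16-fold, and 10 unchanged genes were called. Far fewer genes changed there than the 8158 called in the data, so these shares do not carry over. The 4 arrays limit the precision, and p-values measure the spread between arrays.

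The members and lists were chosen with earlier results of these data known. The rule for named genes took all 9 members, all genes of the lists and the 5 genes nearest in pattern to Nodal and to Lefty2, clone and locus names left out. The alternatives were other background correction (normexp, offset 50, on median signals, as the files hold no mean), scalings, filters, probe rules, marked spots kept, eBayes settings, blocks for replicate number or slide, and leaving out single arrays. Array headers and the gene table refer to different builds, so no coordinates are given. Some genes of the lists are not reported here.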

Additional observations from a re-analysis of the deposited data

How the results depend on the processing

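With the settings of the report limma called 5 of the 9 genes higher and 1 lower, 12 and 12 of the other pathway genes, 4275 and 3883 of all genes, and 5 and 1 of the member probes tested singly. Nodal and Lefty2 kept their direction in all 15 alternatives, several of which leave the fold change of a member unchanged. With no scaling, limma called 0 members, member probes, other pathway genes or genes in all in either direction. At an unadjusted p under 0.05 the counts higher and lower were 0 and 1, 0 and 1, 0 and 10, and 0 and 4047. The fold changes of all genes then move alike, but the 10.9-fold brightness gap between the FLAG IP arrays enters the spread of every gene. The values were 1.25 for Nodal (adjusted p = 0.567 in limma) and -4.85 for Lefty2 (adjusted p = 0.101 in limma). The other members stood at -1.34 for Acvr1b, -0.21 for Acvr2a, -1.18 for Acvr2b, -0.79 for Smad2, -2.07 for Foxh1, -2.24 for Lefty1 and -1.90 for Tdgf1. With quantile normalization Lefty1 stood at -0.35 and Tdgf1 at -0.055, and 2 member probes were called lower, that of Lefty2 and A_52_P664656 of Acvr2a. The call of A_52_P664656 rests on FLAG IP spots that were not well above background. After normexp background correction 4 members were called higher and 0 lower (5 and 1 unadjusted), 4 and 5 other pathway genes, 1272 and 1398 of all genes, and 0 and 0 member probes (5 and 1 unadjusted). With no filter on dim probes 7 other pathway genes were called lower and 0 and 0 member probes were called (5 and 1 unadjusted).

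With slide as a block 3 members were called higher, 5 other pathway genes were higher and 3 lower, 1431 and 1545 of all genes were called, and 0 and 0 member probes (3 and 1 unadjusted). Lefty1 then stood at -0.075. The fold changes equal those without input replicate 1, since that array is alone on its slide. With the replicate block the members' calls stayed at 5 higher and 1 lower, and all genes at 4130 and 3875. Same-numbered arrays did not deviate together (r = 0.0498 over 15266 genes, which are not independent), so the numbers were not taken as pairs. With each array left out in turn, 0 to 6 members were called higher and 0 to 1 lower, 0 to 21 other pathway genes higher and 0 to 18 lower, 0 to 6829 of all genes higher and 0 to 6053 lower, and 0 to 7 member probes higher and 0 to 2 lower. The counts of 0 came without input replicate 1, where 4 members were higher and 1 lower at an unadjusted p under 0.05 (2732 and 2538 of all genes), and for member probes also without input replicate 2 (4 and 1 unadjusted). Over the same fits Tdgf1 ran from -0.034 to 1.21, Lefty1 from -0.20 to 0.70 (-0.075 without input replicate 1) and Foxh1 from -0.36 to 1.19. An array left alone in its group is assumed to vary like the other group. Within arrays, normexp gave 4.82 for Nodal minus Lefty2 and 0.76 for Acvr2a minus Acvr2b. Signal over background limits Tdgf1, Lefty1 and the second probes of Acvr1b and Acvr2a.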
